A study of Homo sapiens with 32 samples.

Results

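The cluster described here is the set of X-linked miRNA hairpins mir-424, mir-503, mir-542, mir-450a and mir-450b, which are read from one strand within a few kilobases and are treated as parts of one polycistronic primary RNA. Its members were the 5 rows of the count table that carry these names, of 1513 miRNA rows in all, and all 5 had counts high enough to be tested in every comparison. Small RNA was sequenced from 293T cells, a transformed human embryonic kidney line. The 4 WT clones are numbered 52, 55, 57 and 67. The 4 deletion clones, numbered 30, 34, 42 and 43, carry the genotype DGCR8 delta103-126Q, a segment removed by prime editing that holds the reported ERH binding site. Every clone was transfected with 4 vectors, namely control shRNA 1 and 2, which target no gene, and ERH shRNA 1 and 2, which gave 32 libraries. All cells were placed in puromycin at 2 µg/ml and sorted on day 5 for a fluorescent marker on the vector, so the knockdown was transient. Each line is 1 clone, so clones of a genotype can differ in more than the edit. ERH mRNA, DGCR8 and the host RNA of the cluster were not measured in these small RNA libraries, so neither the knockdown nor the edit was checked here.

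A miRNA starts as a hairpin in a longer primary transcript. The Microprocessor, in which the nuclease DROSHA works with the RNA-binding protein DGCR8, cuts the hairpin out, DICER then removes its loop, and one strand is loaded into an Argonaute protein. Bases 2 to 8 of that strand, the seed, pair with target mRNAs. ERH is a small nuclear protein that binds DGCR8. Hairpins of one primary RNA are transcribed together, so a change in transcription moves them all, whereas cutting, loading and decay act on each hairpin or strand. The miR-424 and miR-503 products belong to the family of miR-15 and miR-16, known for restraining the cell cycle through cyclins and cyclin-dependent kinases.

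The mature products fall into separate seed groups, shown here because the members are compared with one another and because each count row adds both strands of a hairpin. The sequences are those of RefSeq (GRCh38.p14), 5′ to 3′, with seed bases 2 to 8 in capitals.
miR-424-5p: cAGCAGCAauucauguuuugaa
miR-503-5p: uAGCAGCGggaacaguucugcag
miR-16-5p: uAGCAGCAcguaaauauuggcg
miR-542-5p: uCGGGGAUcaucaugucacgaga
miR-450a-5p: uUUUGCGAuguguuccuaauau
miR-450b-5p: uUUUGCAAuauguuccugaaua
The seed AGCAGCA of miR-424-5p was also that of 6 other mature miRNAs in the RefSeq table, among them miR-15a-5p, miR-15b-5p, miR-16-5p, miR-195-5p and miR-497-5p. miR-503-5p shared bases 2 to 7 with that group and differed at the last seed base by A8G, counted from the 5′ end. miR-450a-5p and miR-450b-5p were identical at 16 of 22 positions, and 1 of the 6 differences, G7A, lay in the seed. miR-542-3p has no entry in the table and is named only.

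In GENCODE 29 (GRCh38, which the sources used here do not state to be the build behind the counts) the hairpins lie on chromosome X, minus strand. In the direction of transcription MIR424 spans 134546614 to 134546711 and MIR503 spans 134546328 to 134546398, with 215 bases between them. MIR542 follows after 4890 bases, at 134541341 to 134541437. MIR450A2 (134540508 to 134540607), MIR450A1 (134540341 to 134540431) and MIR450B (134540185 to 134540262) follow with 733, 76 and 78 bases between neighbours. The mir-450a row therefore adds up 2 loci. The annotated lincRNA MIR503HG (134543337 to 134546632) holds MIR503 in an intron and overlaps the end of MIR424, while MIR542 and the 3 MIR450 loci lie beyond its annotated end.

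The hairpins differ in base composition and predicted stability, the features of a precursor that the Microprocessor meets. They are printed with the mature arms listed by RefSeq in capitals and the rest in lower case, and mir-450a is shown by its MIR450A1 copy.
mir-424: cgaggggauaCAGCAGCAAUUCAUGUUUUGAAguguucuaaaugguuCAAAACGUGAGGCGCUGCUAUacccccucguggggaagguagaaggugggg
mir-503: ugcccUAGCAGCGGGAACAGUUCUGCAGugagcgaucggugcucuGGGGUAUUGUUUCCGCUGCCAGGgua
mir-542: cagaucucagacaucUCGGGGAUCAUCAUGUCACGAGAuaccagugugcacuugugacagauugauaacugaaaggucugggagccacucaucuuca
mir-450a: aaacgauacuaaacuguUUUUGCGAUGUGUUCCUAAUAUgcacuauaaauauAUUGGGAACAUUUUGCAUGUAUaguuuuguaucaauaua
mir-450b: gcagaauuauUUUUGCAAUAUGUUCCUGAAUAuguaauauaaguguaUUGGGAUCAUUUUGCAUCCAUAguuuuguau
GC content was 59.2% in mir-503, 51.0% in mir-424 and 47.4% in mir-542, against 27.5% in the mir-450a copy and 28.2% in mir-450b. Only 1.03% and 1.09% of the 1560 RefSeq hairpins had a lower GC content than these mir-450 hairpins. Predicted folding energy per base (ViennaRNA minimum free energy) was -0.594 kcal/mol in mir-503, -0.427 in mir-424, -0.381 in the mir-450a copy, -0.360 in mir-542 and -0.292 in mir-450b. The mir-503 hairpin was more stable per base than 84.7% of the hairpins, and the mir-450b hairpin more stable than 7.44%.

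The libraries held 1318923 to 6222790 miRNA counts. The counts behind a member in one library ran from 931 to 6514 for mir-424, from 739 to 5821 for mir-503, from 944 to 7915 for mir-542, from 263 to 1688 for mir-450b and from 41 to 407 for mir-450a, the least precisely measured row. The labels tie the 4 libraries of a clone together, so the 2 control libraries and the 2 ERH libraries of a clone were each summed, and the clone was the replicate (n = 4 per genotype). The 4 libraries of WT clone 57 stood apart on the second principal component of the whole data set (-10.8 to -9.12, against -5.04 to 5.18 for the other 28 libraries), so calls are also given without it where it matters. Levels are given as CPM, counts relative to the miRNA total of a sum after TMM scaling, which centres the bulk of miRNAs on no change.

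The members were not equally abundant, although they are treated here as parts of a shared primary RNA, which was not measured. Mature products are of similar length, so no length scaling was applied, but the adapter ligation of a small RNA library favours some ends, and levels of different miRNAs are therefore only roughly comparable. In order, the median over the 16 sums was 1286 CPM for mir-542, 1150 CPM for mir-424, 763 CPM for mir-503, 313 CPM for mir-450b and 69.4 CPM for mir-450a. These values ranked them 78th, 82nd, 93rd, 138th and 213th of the 1513 rows. The first 2 neighbours in this order overlapped widely between clones, whereas mir-450a lay below mir-450b in all 16 sums although it has 2 loci.

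Across WT clones under control shRNAs the cluster made up 0.295% ± 0.0711 of miRNA counts (SD, n = 4). Of the cluster's counts, mir-424 gave 36.5% ± 5.51, mir-542 gave 31.6% ± 3.06, mir-503 gave 21.0% ± 4.96, mir-450b gave 8.89% ± 1.76 and mir-450a gave 2.02% ± 0.379 (SD, n = 4 each). The make-up varied between clones of one genotype, and not all pairs of members varied alike. Over the 8 clones under control shRNAs, the log2 ratio of mir-542 to mir-450b had an SD of 0.14, the smallest of the 10 pairs, with values from 1.66 to 2.04. The log2 ratio of mir-503 to mir-450a had an SD of 0.54, the largest, with values from 2.25 to 3.94. The neighbours mir-424 and mir-503 lay between these extremes, with an SD of 0.42.

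Levels under ERH knockdown were compared with those under control shRNAs within each clone. By edgeR, mir-424 and mir-450a fell, while mir-450b, mir-503 and mir-542 missed the threshold. DESeq2 called mir-450b lower as well. For mir-424, whose product shares the miR-16 seed, WT clones 52, 55, 57 and 67 had 1916, 1582, 838 and 1249 CPM under control shRNAs and 982, 866, 844 and 1507 CPM under ERH shRNAs. Deletion clones 30, 34, 42 and 43 had 1593, 969, 1417 and 1287 CPM under control shRNAs and 1096, 837, 1203 and 839 CPM under ERH shRNAs. The level was lower in 6 of 8 clones, with clones 57 and 67 as the exceptions, and the control and knockdown ranges overlapped. In the edgeR quasi-likelihood test the log2 difference between ERH and control shRNAs was -0.39 ± 0.13 (SE), with an adjusted p of 0.0211 (Benjamini-Hochberg over 667 miRNAs).

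For mir-450a, whose mature strand differs from that of mir-450b within the seed, the WT clones in the same order had 92.9, 99.6, 42.8 and 73.4 CPM under control shRNAs and 54.2, 52.9, 49.6 and 63.9 CPM under ERH shRNAs. The deletion clones had 137, 77.2, 81.3 and 101 CPM under control shRNAs and 87.1, 60.1, 62.2 and 65.3 CPM under ERH shRNAs. The level was lower in 7 of 8 clones, clone 57 being the exception, and the log2 difference was -0.47 ± 0.15 (SE), with an edgeR adjusted p of 0.0177. For mir-450b the WT clones had 315, 413, 300.1 and 278 CPM under control shRNAs and 176, 323, 238 and 366 CPM under ERH shRNAs. Its deletion clones had 600.1, 323, 306 and 463 CPM under control shRNAs and 476, 268, 262 and 311 CPM under ERH shRNAs. It was lower in 7 of 8 clones, all but clone 67, and its log2 difference of -0.32 ± 0.13 (SE) did not pass, with an edgeR adjusted p of 0.0567. With DESeq2 it was -0.37 and passed, with an adjusted p of 0.025.

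For mir-503, which lies between mir-424 and the rest, the WT clones had 869, 605, 661 and 937 CPM under control shRNAs and 871, 567, 860.3 and 1350.3 CPM under ERH shRNAs. The deletion clones had 656, 661, 618 and 787 CPM under control shRNAs and 739.7, 729, 806 and 863 CPM under ERH shRNAs. It was higher in 7 of 8 clones, all but clone 55, and its log2 difference of 0.21 ± 0.11 (SE) did not pass, with an edgeR adjusted p of 0.145. For mir-542 the WT clones had 1299, 1384, 976 and 1040.2 CPM under control shRNAs and 939, 1386, 1266 and 2049.5 CPM under ERH shRNAs. Its deletion clones had 2384, 1183, 1058 and 1459.9 CPM under control shRNAs and 2095, 1359, 1161 and 1272 CPM under ERH shRNAs. It was higher in 5 of 8 clones, with a log2 difference of 0.10 ± 0.13 (SE) and an edgeR adjusted p of 0.561.

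Thus edgeR called 2 of the 5 members, both lower and none higher. Of all 667 miRNAs tested it called 16.5% lower and 20.1% higher (36.6% in all). DESeq2 called 3 members, all lower, and of the 667 miRNAs 130 lower and 129 higher. Of all miRNAs 19.2% were lower in at least 7 of 8 clones, as mir-450a and mir-450b were, and 24% were higher in at least 7, as mir-503 was. The median log2 fold change was -0.32 over the cluster and 0.06 over all 667 miRNAs. Both calls were lost when clone 30, 43, 52 or 55 was left out, with edgeR adjusted p between 0.0507 and 0.144, and both were made without clone 57. Without the clone as a block no member was called.

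**Figure D1:**
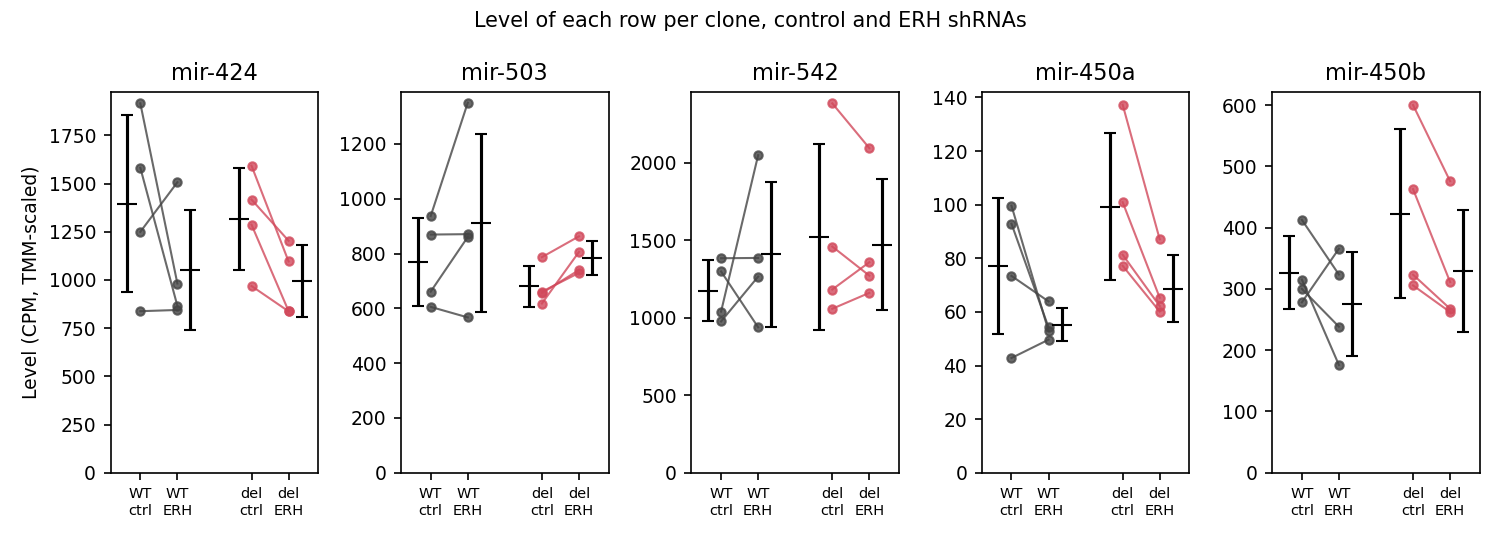
Level of each member (CPM, TMM-scaled, linear axis from 0) in WT (grey) and deletion (red) clones under control and ERH shRNAs. Each line joins the control and ERH sums of 1 clone, and black marks give the group mean and SD (n = 4). Lines for mir-424, mir-450a and mir-450b mostly slope down and those for mir-503 mostly up, with wide overlap between groups.

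The same test was run within each genotype. In the 4 deletion clones, the log2 difference was -0.43 ± 0.12 (SE) for mir-424, with an edgeR adjusted p of 0.0445, and -0.54 ± 0.13 for mir-450a, with an adjusted p of 0.0296. All 4 deletion clones were lower for both, as they were for mir-450b, and all 4 were higher for mir-503. How many of all miRNAs moved one way in these 4 clones was not counted. Thus edgeR called mir-424 and mir-450a lower, 2 of 5 members. Of all 633 miRNAs tested it called 6% lower and 10.3% in either direction. DESeq2 called 3 lower, with mir-450b at an adjusted p of 0.0151. Of the 633 miRNAs it called 57 lower and 94 in either direction. Both edgeR calls were lost without clone 30, 42 or 43, and the count over all miRNAs, 65, became 30, 38 and 44 without these and 119 without clone 34. For mir-450b it was -0.38 ± 0.12 (edgeR adjusted p of 0.0671), for mir-503 0.18 and for mir-542 -0.04.

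In the 4 WT clones none of the 5 members passed, with adjusted or unadjusted p (edgeR), and DESeq2 called none after adjustment, while 31.3% of 613 miRNAs were called by edgeR and 222 of the 613 by DESeq2. The log2 fold changes were -0.34 for mir-424, -0.38 for mir-450a, -0.23 for mir-450b, 0.25 for mir-503 and 0.27 for mir-542. Those of mir-424, mir-542 and mir-450b rested on single clones. Without each clone in turn, mir-450a ran from -0.59 to -0.19 and mir-503 from 0.15 to 0.39, so both kept their sign. Without clone 52, mir-424 was at -0.08 and mir-542 was called higher at 0.57 (edgeR adjusted p of 0.0101), and without clone 67 they were at -0.56 and 0.02, neither of them called. With the first vectors alone mir-542 was also called higher, at 0.49 (edgeR adjusted p of 0.0111). The SEs of the 5 members were larger than in the deletion clones, at 0.18 to 0.24. Clone 52 fell by 0.96 and clone 55 by 0.87 on the log2 scale for mir-424, whereas clone 57 changed by 0.01 and clone 67 by 0.27. The difference between genotypes in the knockdown effect was tested as an interaction, and it lay between -0.23 and 0.00 for the 5 members with SEs of 0.19 to 0.26. No member was called in it, and no miRNA of 667 either (edgeR, 127 with an unadjusted p under 0.05, and 16 called by DESeq2). Without clone 52 edgeR called 35 miRNAs in it, and without clone 67 it called 3, none of them a member. The interaction values also moved with the setting. With the GC correction mir-450a was at 0.54 and mir-450b at 0.56. With the first vectors alone mir-450a was at -0.72 and mir-542 at -0.71, and with the second alone at 0.38 and -0.07. No member was called in these settings, against 1 of 667, 30 of 586 and 0 of 582 miRNAs (edgeR).

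**Figure D2:**
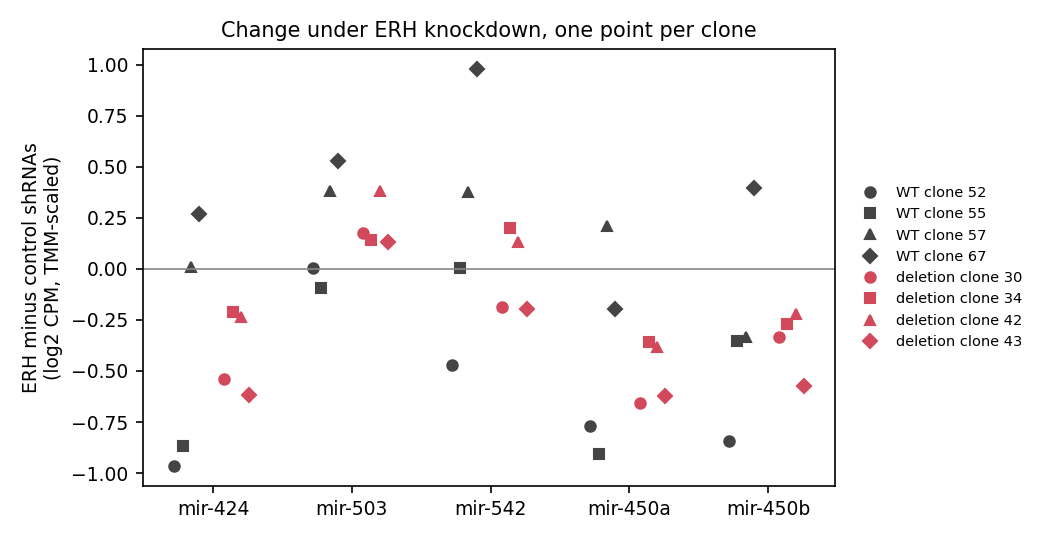
Change under ERH knockdown in each clone (y axis, log2 CPM under ERH shRNAs minus log2 CPM under control shRNAs) for the 5 members, with WT clones in grey and deletion clones in red. Points of one clone tend to sit high or low for all members (WT clone 67 highest for all but mir-450a, WT clone 52 low for all), and within a clone mir-424 lies below mir-503.

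The level of each member depends on the factor by which a library is scaled, but a ratio of 2 members within a library does not. A bias that differs between rows, such as one by GC content, stays in a ratio, and the ratios were not corrected for GC content. Ratios between members therefore asked whether the hairpins of the cluster kept their proportions. For each clone and arm the log2 ratio of counts was taken for all 10 pairs (0.5 added to each count), and knockdown was tested by an exact two-sided sign-flip permutation test over the 8 clones, with Benjamini-Hochberg adjustment over the 10 pairs. The smallest p this test can give is 0.00781.

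Proportions shifted for 6 of the 10 pairs. The members were put into 2 sides by the outcome of these same tests, so the sides are a description and no further result. mir-503 and mir-542 gained on mir-424, mir-450a and mir-450b, and all 6 ratios across that split moved the same way in 8 of 8 clones (exact permutation p = 0.00781, adjusted p = 0.013 for each). The 4 ratios within a side did not pass. With single vectors, given below, the pairs that passed were not the same. A side does not follow the order on the chromosome, since mir-424 and mir-503 are the closest pair at the 5′ end and mir-542 lies ahead of the mir-450 loci.

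For mir-424 to mir-503, the log2 ratio in WT clones 52, 55, 57 and 67 was 1.14, 1.39, 0.34 and 0.42 under control shRNAs and 0.17, 0.61, -0.03 and 0.16 under ERH shRNAs. In deletion clones 30, 34, 42 and 43 it was 1.28, 0.55, 1.20 and 0.71 under control shRNAs and 0.57, 0.20, 0.58 and -0.04 under ERH shRNAs. Every clone moved down, and 2 clones ended with fewer mir-424 than mir-503 counts. The mean change was -0.60 ± 0.25 (SD, n = 8).

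For mir-424 to mir-542 the mean change of the log2 ratio was -0.50 ± 0.19 (SD, n = 8), with -0.50, -0.87, -0.36 and -0.71 in the WT clones and -0.35, -0.41, -0.37 and -0.42 in the deletion clones. The deletion clones lay close together here and the WT clones more widely. For mir-503 to mir-450a the mean change was 0.67 ± 0.23, with 0.78, 0.82, 0.17 and 0.73 in the WT clones and 0.83, 0.50, 0.77 and 0.76 in the deletion clones. For mir-503 to mir-450b it was 0.52 ± 0.24, with single clones between 0.13 and 0.84. For mir-542 to mir-450a it was 0.57 ± 0.33, with single clones between 0.17 and 1.18, and for mir-542 to mir-450b it was 0.42 ± 0.17, between 0.15 and 0.71 (SD, n = 8 each). WT clone 57 gave the smallest change for both ratios to mir-450a, and it still had the same sign as the others.

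Within the sides, mir-424 to mir-450a changed by 0.07 ± 0.21, mir-424 to mir-450b by -0.08 ± 0.24, mir-450a to mir-450b by -0.15 ± 0.37 and mir-503 to mir-542 by 0.10 ± 0.31 (SD, n = 8, adjusted exact permutation p = 0.379 to 0.445). Clones moved in both directions for each of these ratios.

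Shifts of this kind were common in the data set. Over 49131 other pairs of rows, each row with a mean of at least 100 counts, 32.6% moved the same way in all 8 clones. Among 55 other pairs of hairpins within 10 kb of each other on one strand this share was 23.6%, with a median absolute change of 0.20. In the cluster it was 6 of 10 pairs, which are not independent because they come from 5 rows.

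**Figure D3:**
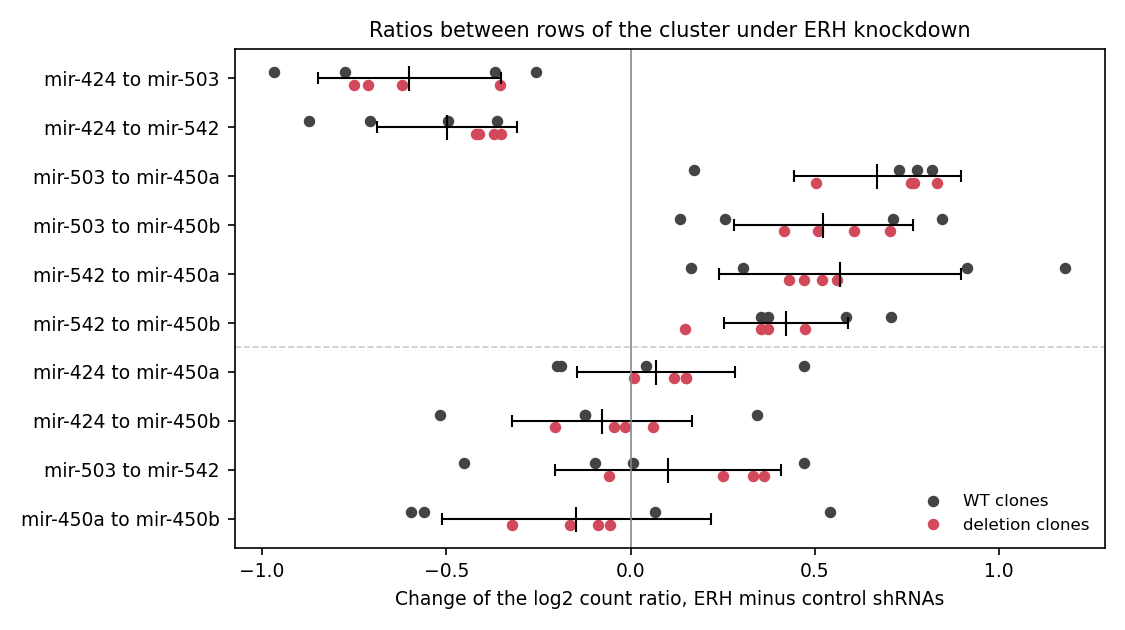
Change of the log2 count ratio of each pair of members under ERH knockdown (x axis), with 1 point per clone (WT grey, deletion red) and the mean and SD over 8 clones in black. Above the dashed line, the 6 ratios that pair mir-503 or mir-542 with mir-424, mir-450a or mir-450b lie on one side of 0 in all 8 clones. The 4 ratios below it lie on both sides of 0.

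As shares of the cluster, mir-424 went from 36.5% to 28.4% in WT clones and from 33.0% to 27.4% in deletion clones. mir-503 went from 21.0% to 24.6% and from 17.4% to 21.9%, and mir-542 from 31.6% to 37.9% and from 36.8% to 39.9%. mir-450a went from 2.02% to 1.54% in WT and from 2.44% to 1.88% in deletion clones. These are means over 4 clones. In all 8 clones the mir-424 share fell, from 29.7% to 25.9% in the clone with the lowest WT control value and from 42.6% to 32.5% in the clone with the highest.

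The 2 ERH vectors and the 2 control vectors also allowed a look at single vectors. With the first ERH and first control vector alone, 6 pairs passed, but not the same 6: mir-424 to mir-450b also fell (-0.37, adjusted p = 0.026, exact permutation test), and mir-503 to mir-450b missed (0.36, adjusted p = 0.0893). With the second vectors alone 2 pairs passed, mir-503 to mir-450a at 0.72 and mir-503 to mir-450b at 0.68. The mir-424 to mir-503 ratio then moved by -0.46 in 7 of 8 clones (adjusted p = 0.0521), and mir-424 to mir-542 by -0.26 in 6 of 8 (adjusted exact permutation p = 0.201). The shift of mir-424 against mir-503 was thus -0.73 with the first vectors and -0.46 with the second, and this difference between vectors was not tested. Between the 2 control vectors, no ratio passed (0 of 10, smallest unadjusted exact permutation p = 0.0781, adjusted p = 0.547). The mean difference between them was at most 0.31 in size, with an SD over clones of 0.23 to 0.58. Knockdown shifts between single vectors had SDs of 0.27 to 0.48 with the first and 0.28 to 0.70 with the second vectors.

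The knockdown shift of the ratios was also compared between genotypes. It was -0.59 in WT and -0.61 in deletion clones for mir-424 to mir-503, and 0.62 and 0.72 for mir-503 to mir-450a. The largest gap was for mir-503 to mir-542, at -0.02 in WT and 0.22 in deletion clones. None of the 10 pairs passed (exact permutation test of 4 against 4 clones, adjusted p = 1.00 for each). This test could hardly pass: the smallest p it allows is 0.0286, which for 1 pair alone becomes an adjusted p of 0.286, and 6 pairs would have to reach that minimum together. These values therefore neither show nor exclude a difference between genotypes, of whatever size in a single pair.

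Loss of the ERH binding site of DGCR8 was then compared with WT under control shRNAs, 4 clones against 4. No member was called (0 of 5, also at an unadjusted p under 0.05 and by DESeq2), against 25.9% of 536 miRNAs called by edgeR and 177 of the 536 by DESeq2. The log2 fold changes of deletion against WT were 0.38 ± 0.27 for mir-450b, 0.37 ± 0.26 for mir-542, 0.36 ± 0.33 for mir-450a, -0.09 ± 0.27 for mir-424 and -0.15 ± 0.22 for mir-503 (SE, adjusted p = 0.305 to 0.843 by edgeR). In means, mir-542 stood at 1175 ± 197 CPM in WT and 1521 ± 599 CPM in deletion clones, and mir-503 at 768 ± 160 and 680.1 ± 73.6 CPM (SD, n = 4). The higher mir-542 mean rests on clone 30, at 2384 CPM, and the 2 genotypes overlapped for all 5 members. Over all miRNAs tested for knockdown, 24.4% had genotypes that did not overlap.

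The ratios between members were compared by the same permutation test, under the same limit of an adjusted p of 0.286 for a lone pair, so the absence of calls says little. For mir-424 to mir-450a the log2 ratio was 4.18 ± 0.17 in WT and 3.74 ± 0.26 in deletion clones (SD, n = 4, exact permutation p = 0.0857, adjusted p = 0.476), the smallest p of the 10 pairs. For mir-424 to mir-503, the ratio with a large shift under knockdown, it was 0.82 ± 0.52 in WT and 0.94 ± 0.36 in deletion clones (adjusted p = 0.898, exact permutation test). For mir-542 to mir-450b it was 1.85 ± 0.16 and 1.83 ± 0.14. None of the 10 pairs had genotypes apart without overlap, against 28.4% of 49131 other pairs of rows. Under ERH shRNAs 0 of 10 ratios passed, with the same limit, the smallest exact permutation p being 0.114 (adjusted p = 0.381), against 8.94% of other pairs with genotypes apart. In single members the deletion clones then differed from WT by -0.23 to 0.30 on the log2 scale with SEs of 0.23 to 0.28, and none was called. Of the tested miRNAs 9.75% had genotypes apart under ERH shRNAs. No miRNA of 569 was called in that comparison by edgeR (87 with an unadjusted p under 0.05, 8 called by DESeq2).

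The scale of the levels matters for direction. TMM scaling put the median miRNA at 0.06 under knockdown, scaling by total miRNA counts put it at 0.33 and scaling by the spike-in RNAs, which were added to a fixed mass of total RNA, put it at 0.52. On the total scale mir-424 and mir-450a were at -0.12 and -0.20 and no longer called, and mir-503 (0.48, adjusted p = 0.00177) and mir-542 (0.37, adjusted p = 0.0346) were called higher by edgeR. On the spike-in scale mir-503 was called higher at 0.66 (adjusted p = 0.0165 by edgeR), mir-542 was at 0.55, and mir-424, mir-450a and mir-450b were at 0.06, -0.01 and 0.14 without a call. Of all 667 miRNAs 210 were called higher on the total scale and 233 on the spike-in scale. On each of these scales mir-503 and mir-542 lay above mir-424, mir-450a and mir-450b. Each scale applies a shared factor to all rows of a sum, so this order was nearly fixed beforehand and is no separate support.

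GC content was the other setting that moved the mir-450 rows. In the deletion comparison under control shRNAs, the 20 tested hairpins with at most 30% GC had a median log2 fold change of 1.13, against -0.06 for the 508 with more. The mir-450a and mir-450b hairpins belong to the former group and lay below its median, at 0.36 and 0.38. With a correction for GC content, their values in that comparison became -0.66 (adjusted p = 0.0977 by edgeR) and -0.68 (adjusted p = 0.056 by edgeR). Under knockdown the medians were 0.45 for 23 low-GC hairpins and 0.04 for the rest, so that the fall of mir-450a ran against its GC group, and with the correction mir-450a was at -0.91 and mir-450b at -0.77, both called lower together with mir-424 (-0.36). Of all 667 miRNAs 126 were called lower with the correction. The mir-424 hairpin, at 51.0% GC, lies between mir-503 and mir-542, so the split of the ratios does not order the 5 hairpins by GC content. The part of GC content in these values was not tested.

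**Figure D4:**
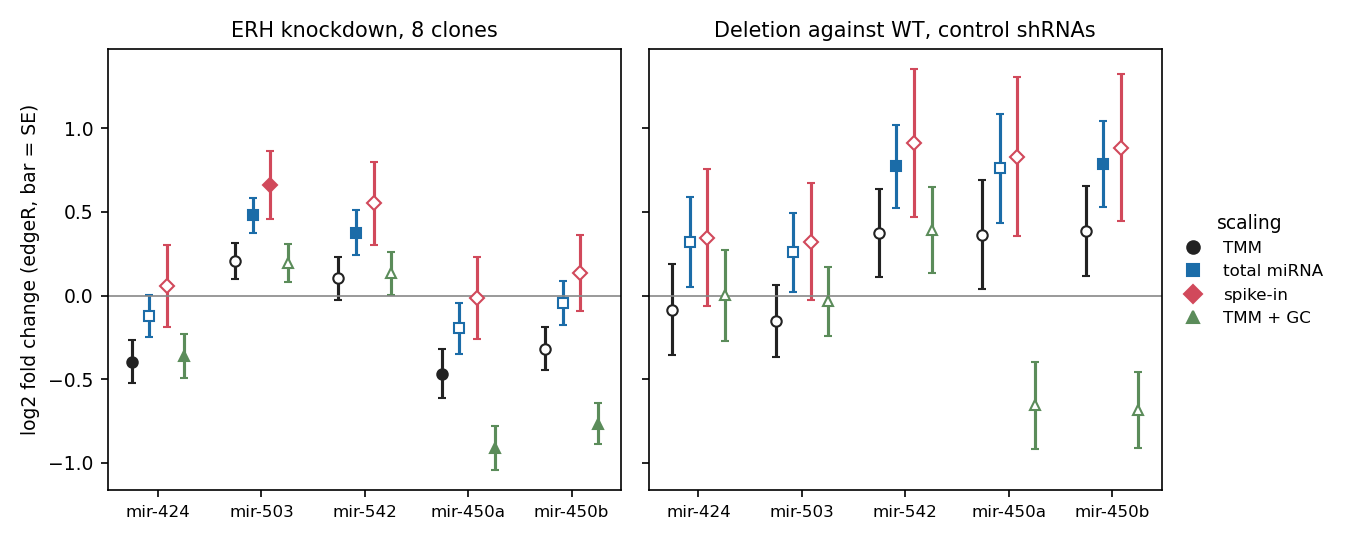
log2 fold change of each member (edgeR, bars are SE) for ERH knockdown in 8 clones (left) and deletion against WT under control shRNAs (right). The 4 settings are TMM, total miRNA and spike-in scaling, and TMM with a GC correction. Symbols are filled where the adjusted p is under 0.05. In the left panel mir-503 and mir-542 lie above the other members in each setting. TMM, total and spike-in scaling nearly fix this order, since each moves all rows of a sum together. In the right panel the GC correction takes mir-450a and mir-450b from above 0 to below 0.

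The miRNAs that share the miR-424 seed but come from other primary RNAs were read beside the cluster. Under ERH knockdown 4 of the 5 rows of that family outside the cluster were called lower by edgeR, namely mir-15a (-1.75), mir-15b (-1.04), mir-497 (-0.57) and mir-16 (-0.26), and mir-195 was at -0.24. Over all miRNAs 16.5% were called lower. Their median was -0.57. The value of mir-424, -0.39, lay between those of mir-497 and mir-16, and mir-503, which shares only bases 2 to 7 of the seed, was at 0.21 without a call. In the deletion under control shRNAs, mir-15b (-0.94) and mir-16 (-0.47) were called lower by edgeR, beside 7.09% of all miRNAs, and mir-424 was at -0.09 without a call. Members of this family were already part of earlier results of these data, so these values are no independent support.

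Other X-linked clusters were listed for comparison. Of the 4 neighbours at Xq26 (mir-106a, mir-18b, mir-20b and mir-363) 3 could be tested under knockdown, and 1, mir-18b, was called lower (-0.86), with a median of -0.35. Of 8 rows of the CLCN5 cluster 3 were called lower, with a median of -0.19. The 4 rows of hairpins listed as bypassing the Microprocessor had a median of 0.17 and none was called. The shares over all miRNAs to set beside these edgeR counts are again 16.5% lower and 36.6% in either direction. In the deletion under control shRNAs the medians were 0.36 for the cluster, -0.65 for the Xq26 neighbours, -0.18 for the CLCN5 rows and -0.43 for the bypassing rows, and of these lists no row was called.

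Outside the cluster, the rows whose profile over the 16 sums was most like the mean profile of the 5 members were mir-29b, mir-340, mir-27a, mir-190a and mir-186. Likeness was the root mean square difference of log2 CPM, each profile centred on its own mean, over 309 rows with at least 100 counts on average. It was 0.23 for mir-29b and 0.27 to 0.29 for the other 4, against a median of 0.58. The members themselves lay at 0.22 (mir-542), 0.24 (mir-450a, mir-450b and mir-424) and 0.37 (mir-503) from the profile they make up. mir-503 was thus farther from it than the 5 outside rows named, which were picked as the closest, and nearer than the median outside row.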

How the data were processed

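The authors deposited whole-number read counts per miRNA precursor row, per the file header, with 1 column per library and 4 spike-in RNAs. QIAseq miRNA libraries were made from 100 ng of a mix of 400 ng total RNA with spike-ins, per the labels' protocols. The aligner, the annotation and any use of molecular identifiers are not given in the sources used here, and amplification copies may be among the counts. Pairs of libraries within a group differed by a chi-square of at least 75.4 per degree of freedom (48 pairs), so no library was a copy of another in its group. Libraries of different groups, such as those of the same clone, were not compared in this way.

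Sums of the 2 libraries per clone and arm were tested with edgeR 4.0.16 (quasi-likelihood, filterByExpr, TMM, adjusted p under 0.05 over all miRNAs), with the clone as a block for knockdown. The fit was checked on simulated counts. The pairing comes from the labels. Deviations of a clone's 2 sums correlated over 314 rows with r from 0.47 to 0.87. Whether clones were processed as separate cultures per vector is not stated. A prior count of 2 was used for log2 CPM and none for CPM. Ratios were tested by exact permutation. Hairpins were folded with ViennaRNA 2.7.2. All 5 members were named in every comparison. The members, lists and tests were chosen with earlier results of these data known. Alternatives were DESeq2 1.42.0, other scalings, a GC correction, filters, single vectors, no block, libraries as samples, and leaving out each clone.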

Additional observations from a re-analysis of the deposited data

Results flagged for a closer look

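Of 70 groups of 4 clones in which member levels, ratios or changes were looked at, 4 had 1 clone far from the other 3, and chance gives about 1 in 20. The mir-503 change under knockdown in deletion clones was highest in clone 42, at 0.38 against 0.13 to 0.17 in the others. The log2 ratio of mir-503 to mir-542 in deletion clones under control shRNAs was lowest in clone 30, at -1.86 against -0.89 to -0.78, and clone 30 also had the most mir-542. The change of the mir-503 to mir-450a ratio in WT clones was lowest in clone 57, at 0.17 against 0.73 to 0.82. The log2 ratio of mir-542 to mir-450a in WT clones under control shRNAs was highest in clone 57, at 4.51 against 3.79 to 3.82. In that clone's control sum mir-450a had 114 counts, its lowest of the 16 sums.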

How the results depend on the processing

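The 6 of 10 ratios that changed under knockdown stayed 6 without each clone, with a pseudocount of 5 and with mean ratios of the 2 libraries. Each of these ratios moved the same way in every clone. That they passed again without any single clone was therefore fixed beforehand and is no separate support. They were 5 without the replicate block, mir-503 to mir-450b being lost, and 2 with the second vectors alone. Ratios between genotypes were at 0 of 10 in the alternatives run, which the design all but fixes.

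The number of members called under knockdown in all clones, 2, became 3 (lower) with DESeq2, 3 (lower) with the GC correction, 2 (mir-503 and mir-542, higher) with total scaling, 0 without the replicate block, 4 (3 lower) with libraries as samples, 1 with no filter, 1 (mir-503, higher) with a mean of at least 100 counts or spike-in scaling, 1 with the first vectors and 0 with the second alone. Leaving out a clone gave 0 to 3. The calls over all miRNAs, in either direction, were 259 of 667 with DESeq2, 233 with the GC correction, 246 with total and 255 with spike-in scaling. They were 37 of 555 without the block, 281 of 574 with libraries as samples and 218 of 1284 with no filter. With a mean of at least 100 counts they were 148 of 314, with the first vectors 166 of 586 and with the second 117 of 582. In WT clones 0 became 2 (higher) with total scaling, 2 (lower) with the GC correction, 1 (mir-542, higher) with the first vectors and 0 to 1 without a clone (mir-542, higher, without clone 52). Over all 613 miRNAs 184 were called higher with total scaling and 101 lower with the GC correction. With the first vectors 90 of 507 were called higher, and without clone 52 it was 129 of 587. In deletion clones 2 became 3 (lower) with DESeq2, 0 with spike-in scaling, without the replicate block and with the second vectors, 1 (mir-503, higher, both lower calls being lost) with total scaling and 0 to 3 without a clone. With the GC correction the count there stayed 2, but mir-424 lost its call (edgeR adjusted p of 0.0602). mir-450b gained one (-0.49, edgeR adjusted p of 0.0169). Over all 633 miRNAs 57 were called lower with DESeq2, 42 lower with the GC correction and 86 higher with total scaling. For the deletion under control shRNAs 0 became 2 (mir-542 and mir-450b, higher) with total scaling, beside 154 of all 536 miRNAs called higher. The causes were not tested.

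Signs turned as follows (log2), leaving out the interaction, for which values by setting are given above. With spike-in scaling, knockdown gave 0.057 for mir-424 and 0.14 for mir-450b in all clones, 0.27, 0.24 and 0.38 for mir-424, mir-450a and mir-450b in WT clones (mir-450b 0.11 with total scaling), and 0.25 for mir-542 in deletion clones. There mir-542 was also 0.15 with total scaling, 0.016 with the GC correction and 0.0081 with the count minimum. In WT clones it was -0.053 with the second vectors. For the deletion under control shRNAs, mir-424 was 0.35 with spike-in scaling, 0.32 with total scaling, 0.0017 with the GC correction, 0.075 with the count minimum and 0.17 with the first vectors. mir-503 was 0.32, 0.26 and 0.0052 under the first 2 of these and the count minimum. mir-450a was -0.66 with the GC correction and -0.026 with the second vectors, and mir-450b was -0.68 with the GC correction. Under ERH shRNAs the deletion gave 0.13 for mir-424 and 0.0032 for mir-503 with total scaling, 0.062 for mir-424 and -0.043 for mir-542 with the second vectors, -0.042 for mir-542 with DESeq2, and -0.11 and -0.14 for mir-450a and mir-450b with the GC correction.

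Without single clones, signs turned for mir-542 under knockdown (-0.044 to 0.18 in all clones, -0.13 to 0.028 in deletion clones), for mir-450b in WT clones (-0.45 to 0.019), for mir-424 in the deletion under control shRNAs (-0.19 to 0.11), and under ERH shRNAs for mir-424 (-0.27 to 0.15), mir-503 (-0.46 to 0.036), mir-542 (-0.24 to 0.29) and mir-450b (-0.050 to 0.41). Among ratios under knockdown, signs turned with the first vectors for mir-424 to mir-450a (-0.12) and mir-503 to mir-542 (-0.036), and with the second for mir-424 to mir-450b (0.23). Ratios of deletion against WT turned with the second vectors for mir-424 to mir-503 (-0.043), mir-542 to mir-450a (0.036) and mir-450a to mir-450b (-0.21). mir-542 to mir-450b turned with the first vectors (0.18) and with mean ratios (0.0016). Without single clones these 4 ratios ran from -0.045 to 0.30, -0.15 to 0.095, -0.16 to 0.18 and -0.075 to 0.044. Low counts limit mir-450a most.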
